A study of Homo sapiens with 18 samples.

Results

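The 42 genes described here act in S phase, the part of the cell cycle in which a cell copies its DNA. They were taken by gene symbol from a list of named genes that sets no threshold on any measured value. The list was, however, chosen with earlier results of these data known. Each of the 42 was found once among the 60675 genes listed for every library. RNA was sequenced from U87, an established human glioblastoma line with no genetic modification, in 18 libraries that form 6 groups of 3. All groups had 24 h of exposure and the 5 rexinoids were each given once at 100 nM: bexarotene, a rexinoid in clinical use that the design names as a control, and the coded compounds A34, A41, A80 and A98. The reference cells received ethanol, the vehicle. A rexinoid is a ligand of the retinoid X receptors, a family of nuclear receptors that pair with many others on DNA. The group called A98 here is named so in its labels, although its tables were named A90.

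DNA replication begins in G1, when the origin recognition complex, CDC6 and CDT1 load the ring-shaped MCM helicase onto DNA, a step called licensing. At the start of S phase MCM10, CDC45 and the GINS complex turn that ring into an active helicase, and polymerases, the sliding clamp PCNA and its RFC loaders copy both strands behind it. Many of these genes are transcribed as cells pass from G1 to S under E2F factors, after cyclin E and its kinase help to inactivate the retinoblastoma protein, so their RNA is often read as a sign of how many cells are dividing.

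All 42 genes were expressed, and all 42 passed the filter of at least 1 TPM in at least 3 libraries. None of them passed an adjusted p of 0.05 in any of the 5 rexinoids against ethanol, in the mean of the 5, in any of the 10 pairs of rexinoids or in the test for any difference among the 5 (limma with Benjamini-Hochberg adjustment over the 18269 genes tested). Levels are given as scaled TPM, the TPM share of a transcript in its library, divided by a factor for each library that aligns the bulk of genes, and fold changes as differences of log2(scaled TPM + 1). The 95% interval of every gene lay between -1 and 1 on that log2 scale in every comparison. The group means were lowest with A34 for 20 of the 42 genes and with A80 for 12, and highest with A41 for 26 and with ethanol for 12. No share over all genes is given for these counts.

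Promoters are shown because E2F factors are known to act at many of these genes through letters near the start site, and the text counts which of them hold such letters. RefSeq promoters of GRCh38.p14, running from 250 bases before to 50 bases after the transcription start, were found for 37 of the 42 genes, 47 promoters in all since 7 genes have several. MCM4, MCM5, GINS4, CCNE2 and DSCC1 had no entry. Each line below gives the 120 bases that end just before a start site, 5′ to 3′ on the gene's strand. Capitals mark an E2F match, one of TTTGGCGC, TTTCGCGC, TTTCCCGC and TTTGCCGC on either strand.
E2F1 (chr20:33686386-33686505, minus strand): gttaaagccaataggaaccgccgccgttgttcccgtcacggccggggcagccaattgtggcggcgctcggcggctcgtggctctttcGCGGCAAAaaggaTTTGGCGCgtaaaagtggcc
CDT1 (chr16:88803669-88803788, plus strand): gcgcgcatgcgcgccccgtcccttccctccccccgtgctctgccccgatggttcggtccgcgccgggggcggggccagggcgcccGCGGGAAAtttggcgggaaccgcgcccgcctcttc
PCNA (chr20:5126623-5126742, minus strand): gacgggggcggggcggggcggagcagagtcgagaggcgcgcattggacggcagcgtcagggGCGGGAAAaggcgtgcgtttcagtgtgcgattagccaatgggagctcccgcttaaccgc
UNG (chr12:109098052-109098171, plus strand): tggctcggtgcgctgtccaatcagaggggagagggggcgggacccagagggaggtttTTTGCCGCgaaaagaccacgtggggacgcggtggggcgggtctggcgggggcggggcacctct
RFC3 (chr13:33818029-33818148, plus strand): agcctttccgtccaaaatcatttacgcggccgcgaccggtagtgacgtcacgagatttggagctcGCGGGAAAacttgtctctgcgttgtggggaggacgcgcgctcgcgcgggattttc
GINS2 (chr16:85688955-85689074, minus strand): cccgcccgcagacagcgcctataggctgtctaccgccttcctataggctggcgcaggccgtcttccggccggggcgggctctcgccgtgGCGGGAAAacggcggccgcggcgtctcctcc
MCM10 (chr10:13161438-13161557, plus strand): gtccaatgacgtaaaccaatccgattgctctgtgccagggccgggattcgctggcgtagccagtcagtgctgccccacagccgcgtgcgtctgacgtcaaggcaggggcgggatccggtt
E2F1, a founding member of the E2F family, holds a match on each strand within its own promoter. CDT1, PCNA, UNG, RFC3 and GINS2 hold 1 match each in the stretch shown, and MCM10 holds none in this window. PCNA and UNG each have another promoter, not shown, without a match.

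An E2F match occurred in 22 of the 47 promoters (46.8%), in 21 of the 37 genes. Among the 15283 promoters of all genes tested the share was 4.95%, and among all 35116 promoters it was 3.31%. MCM6 had 4 matches, the most of any of these genes, which overlap in pairs because the letters can be read on both strands. The CCAAT box (CCAAT, either strand) was in 61.7% of the 47 promoters, against 35% of the promoters of tested genes and 34.6% of all promoters. The GC box (GGGCGG, either strand), whose letters can overlap an E2F match, was in 78.7%, against 64.7% of the promoters of tested genes and 45% of all. The nuclear receptor half-site AGGTCA, on either strand, was in 3 of the 47 (6.38%), those of CLSPN, FEN1 and POLD1, against 10.4% for tested genes and 13.8% for all. A direct repeat of that half-site with 1, 4 or 5 bases between the copies was in 0 of the 47, and in 0.0327%, 0.00654% and 0% of the promoters of tested genes at those spacings. These matches describe letters in a window of sequence and do not show that a factor binds there.

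The level of these genes spanned a wide range. RRM2, the small subunit of ribonucleotide reductase, was highest with a mean of 218 scaled TPM over the 18 libraries, and RRM1, the large subunit, followed at 109. MCM7 averaged 106, MCM4 97.4, the thymidylate synthase gene TYMS 97.1 and PCNA 94.4. The transcription factor gene E2F2 was lowest at 4.29, and POLE2, a subunit of the leading-strand polymerase, had 8.08. In all, 13 genes averaged over 50 scaled TPM, 24 between 10 and 50, and 5 under 10.

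**Figure D1:**
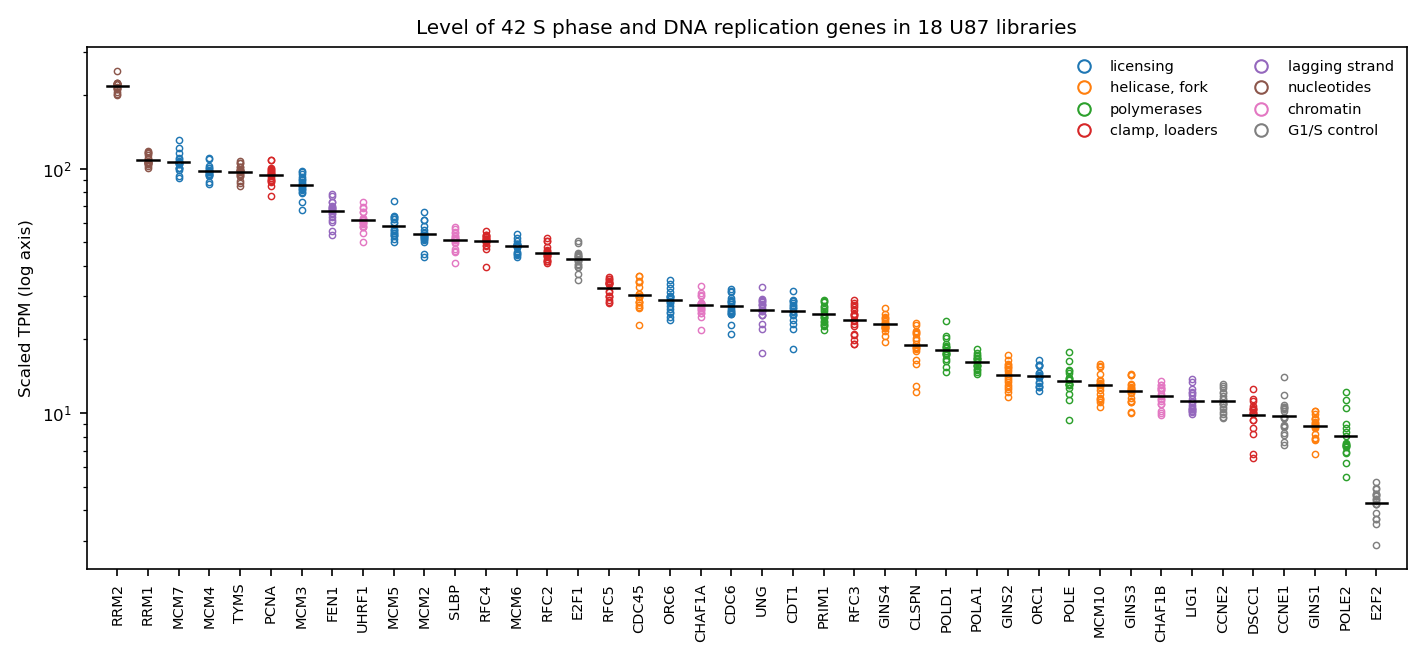
Scaled TPM (log axis) of each of the 42 genes in each of the 18 libraries, ordered by mean and coloured by role; each open circle is a library and the bar is the mean. RRM2 (mean 218) lies apart from the other genes, E2F2 (4.29) is lowest, and the circles of a gene mostly lie close together.

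The spread over all 18 libraries was narrow. The coefficient of variation of scaled TPM ran from 4.95% for RRM1 to 21.4% for POLE2, with a median of 9.84%, groups and replicates together. The highest library stood over the lowest by a ratio of 1.17 to 2.22, with a median of 1.45, and this ratio was under 2 in 41 of the 42 genes. POLE2 was the exception, with 5.50 in A80 replicate 1 and 12.2 in A41 replicate 2.

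Genes whose proteins form one complex kept a steady order of level. Among the 6 MCM genes the order MCM7, MCM4, MCM3, MCM5, MCM2, MCM6 held in 13 of 18 libraries, and the highest stood over the lowest by a ratio of 2.00 to 2.41. Of the 4 GINS genes, GINS4 was highest and GINS1 lowest in 18 of 18. Of the 4 RFC clamp loaders, RFC4 was highest in 15 and RFC3 lowest in 18. RRM2 stood above RRM1 by a ratio of 1.82 to 2.22 in every library, and CHAF1A above CHAF1B, the large and middle subunits of the histone chaperone CAF-1, by 1.90 to 2.77. TPM is scaled by transcript length, so these are levels per length, and an order by deposited coverage was not compared. The ratio of coverage to FPKM, as a share of the library's commonest ratio, differed between genes of a complex. Its median over the libraries was 3.46% for GINS3 and 45.3% for GINS1, and 39.7% for MCM5 and 90.6% for MCM6.

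The libraries differed in depth and in the share of ribosomal RNA. Aligned sequence ran from 1.31 to 3.89 gigabases with a median of 2.08. Pearson's r across genes was 0.951 to 0.981 between libraries of a group, and much the same, 0.944 to 0.982, between libraries of different groups. Ribosomal RNA took 35.5% to 56.1% of TPM in 3 libraries (ethanol replicate 2, bexarotene replicate 1 and A41 replicate 2) and 0.349% to 4.35% in the other 15, which is why TPM was scaled. Of the markers of a mesenchymal and glial line, VIM averaged 4058, CD44 1015, FN1 299, CLU 199, SLC1A3 20.9 and NES 7.70 scaled TPM. The astrocyte gene GFAP had 0.788, and S100B had 0.00971. Of the neuronal genes, SNAP25 had 14.2, SYT1 3.08 and RBFOX3 0.187. Of the other cell types, MBP averaged 1.24 and MOG 0.000626 (oligodendrocyte), and PECAM1 0.650, VWF 0.111 and CDH5 0.0644 (endothelial). ITGAM averaged 0.129, PTPRC 0.0574, CD3E 0.00271 and AIF1 0.00196 (leukocyte and microglia), and KRT8 1.40, EPCAM 0.939 and CDH1 0.0512 (epithelial). The cycling markers MKI67, TOP2A and CCNB1 averaged 78.0, 109 and 134. In bulk RNA, fewer cells in S phase and less RNA per cell cannot be told apart.

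The order of the group means, which no test called, showed in the medians too. The median log2 difference from ethanol over the 42 genes was -0.02 for bexarotene and 0.04 for A41, where TPM without scaling put it at -0.02 relative to the median of all genes. It was -0.15 for A34, -0.10 for A80 and -0.05 for A98. Over all genes tested these medians lay within 0.01 of 0. The 5 medians share the same 3 ethanol libraries.

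**Figure D2:**
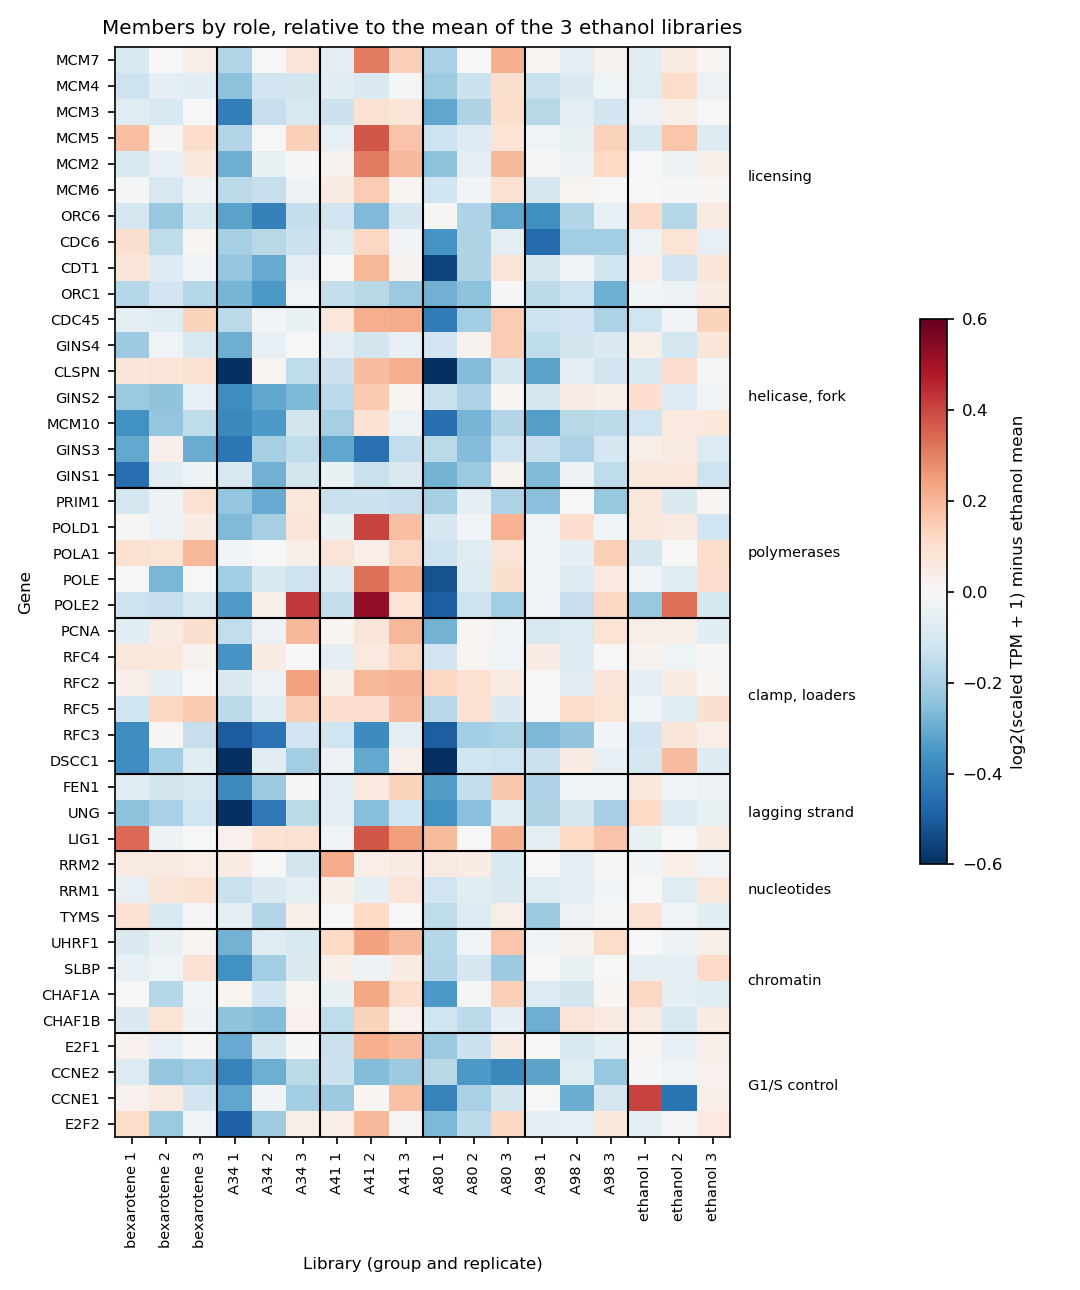
Log2(scaled TPM + 1) of each gene in each library minus the mean of the 3 ethanol libraries, with genes grouped by role and libraries by group; red is higher, blue is lower, and values beyond 0.6 either way take the end colour. A34 replicate 1 and A80 replicate 1 are the bluest columns, and A41 replicate 2 is the reddest.

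With A34, 37 of the 42 genes had a mean below that of ethanol and 5 above. Of the 42, 9 had an unadjusted p under 0.05, all lower, which is 21.4% of them against 10.7% of all genes tested. After adjustment 0 remained, and the share among all genes was 0.0821%. They were UNG, GINS2, CCNE2, SLBP, RFC3, ORC6, MCM10, GINS3 and ORC1. Every A34 library lay below every ethanol library for 12 of the 42 genes, against 8.36% of all genes tested. All 10 licensing genes and all 7 helicase and fork genes had a lower mean with A34, with median log2 differences of -0.16 and -0.26. Without ethanol replicate 3 the 9 became 5, and without ethanol replicate 2 they became 6. Here and below, the share of all genes at that p is not given for fits with a library left out.

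UNG, which removes uracil from DNA, had the lowest log2 difference of the 42 with A34. The gene (chr12:109097597-109110992, GRCh38) was at 17.6, 22.1 and 26.8 scaled TPM in the A34 libraries, against 32.9, 28.5 and 29.2 in the ethanol libraries. The groups did not overlap, and A34 replicate 1 was the lowest of all 18 libraries. The means were 22.2 ± 4.63 and 30.2 ± 2.35 (SD, n = 3 each), a log2 difference of -0.44 (SE 0.12, 95% interval -0.70 to -0.19, limma adjusted p = 0.22). Bexarotene gave 25.3, 26.2 and 27.7, A41 28.9, 25.1 and 27.7, A80 23.2, 25.2 and 28.6, and A98 26.4, 28 and 26.1. All but 2 of the 15 rexinoid values, 28.9 and 28.6, lay below the lowest ethanol value of 28.5.

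SLBP binds the stem-loop of histone mRNA, which lacks a poly(A) tail. It was at 41.1, 45.9 and 50.04 scaled TPM with A34 and 46.8, 49.4 and 45.5 with A80, against 51.1, 51.0 and 57.6 with ethanol. Neither compound's values overlapped those of ethanol, and the log2 differences were -0.22 (SE 0.07, interval -0.38 to -0.06, limma adjusted p = 0.31) and -0.17 (interval -0.32 to -0.01, adjusted p = 0.51). Bexarotene gave 51.3, 52.1 and 56.5, A41 54.3, 52.0 and 54.8, and A98 53.2, 51.5 and 53.2, all within the ethanol range.

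RFC3, a subunit of the clamp loader, was at 19.1, 20.0 and 25.3 with A34 and 19.2, 23.7 and 24.0 with A80, against 25.4, 29 and 28.3 with ethanol. The highest value of A34 lay just under the lowest of ethanol. Its log2 difference was -0.35 with A34 (interval -0.63 to -0.08, limma adjusted p = 0.35) and -0.30 with A80 (interval -0.57 to -0.02, adjusted p = 0.51). Bexarotene gave 21, 27.7 and 24.9, A41 25.2, 20.9 and 26.5, and A98 22.7, 23.2 and 27.2.

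With A80, 6 genes had a mean above ethanol and 36 below. An unadjusted p under 0.05 was reached by 4, all lower (CCNE2, MCM10, RFC3 and SLBP), against 9.41% of all genes. After adjustment it was 0, against 0.0438% of all genes. MCM10, which helps to start the loaded helicase, was at 10.6, 12 and 13.0 with A80, against 13.5, 15.5 and 15.5 with ethanol, a log2 difference of -0.30 (SE 0.11, interval -0.53 to -0.07, limma adjusted p = 0.42). With A34 it was at 11.1, 11.5 and 13.6, which overlaps ethanol by the highest value, and the difference was -0.28 (adjusted p = 0.37).

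With bexarotene, 1 of the 42 genes had an unadjusted p under 0.05, against 5.75% of all genes, and 0 after adjustment, against 0.0547%. That gene was MCM10 again, at 11.3, 12.5 and 13.2 scaled TPM, below each of the 3 ethanol values, with a log2 difference of -0.25 (SE 0.11, interval -0.48 to -0.02, limma adjusted p = 0.84). The intervals of 40 of the 42 genes lay within 0.5 either way, and the widest bounds were -0.57 for DSCC1, which loads PCNA in the cohesion pathway, and 0.42 for CLSPN, which carries the replication checkpoint signal.

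With A98, 2 genes reached an unadjusted p under 0.05, against 6.63% of all genes, and 0 after adjustment, against 0.0328%. Besides CCNE2 this was CDC6, the licensing factor, which had 21.1, 25.4 and 25.4 with A98 and 28.7, 31.2 and 28.5 with ethanol, a log2 difference of -0.29 (SE 0.10, interval -0.49 to -0.09, limma adjusted p = 0.68). The groups did not overlap. The intervals of 41 of the 42 genes lay within 0.5.

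With A41, 29 of the 42 genes had a mean above that of ethanol in scaled TPM, a direction that their median lost relative to all genes in TPM without scaling (-0.02). An unadjusted p under 0.05 was reached by 1 gene higher (UHRF1) and 2 lower (GINS3 and CCNE2), against 10.4% of all genes. After adjustment it was 0, against 0.755% of all genes. UHRF1, which brings the maintenance DNA methyltransferase to newly copied DNA, was at 66.6, 72.7 and 69.8 with A41 and 61.4, 59.8 and 62.8 with ethanol. These groups did not overlap, and the log2 difference was 0.18 (SE 0.08, interval 0.01 to 0.36, limma adjusted p = 0.46). GINS3 was lower, with means of 11.2 and 14.0 scaled TPM in A41 and ethanol, a log2 difference of -0.30 (interval -0.53 to -0.07, adjusted p = 0.32). The ratio of coverage to FPKM of GINS3 was the lowest of the 42 genes, at 3.46% of the library's commonest ratio, which limits what its TPM shows in every comparison.

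**Figure D3:**
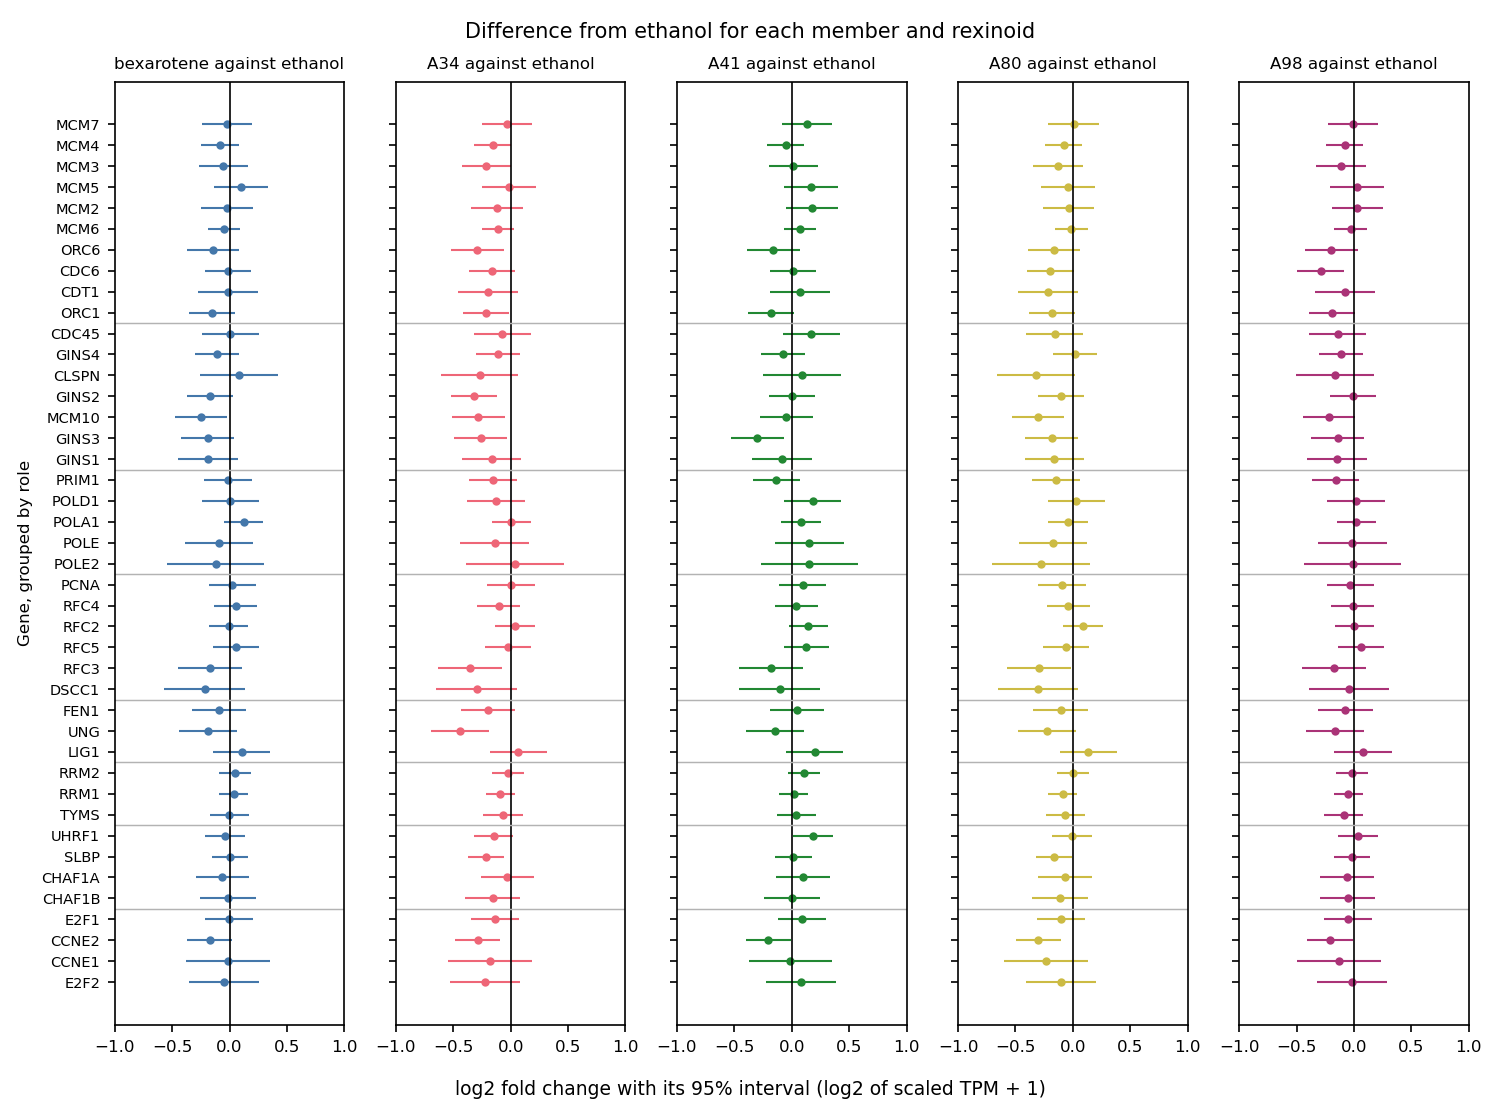
Log2 difference from ethanol with its 95% interval for each gene (rows, grouped by role) and each rexinoid (panels). Points lie mostly left of 0 with A34 (37 of 42) and A80, mostly right of it with A41 (29 of 42; without scaling their median was -0.02 relative to all genes), and no interval reaches -1 or 1.

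With the 5 rexinoids averaged, 7 of the 42 genes had an unadjusted p under 0.05 against ethanol, all lower, against 10.3% of all genes. After adjustment it was 0, against 0.203% of all genes. The 7 were CCNE2, MCM10, GINS3, UNG, ORC1, RFC3 and ORC6, and they became 3 without ethanol replicate 1 or without ethanol replicate 3. The intervals of all 42 genes lay within 0.5 either way, and the median log2 difference was -0.06.

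CCNE2 encodes cyclin E2, a partner of CDK2 at the G1/S boundary (chr8:94879770-94896678, GRCh38). In scaled TPM, bexarotene gave 12.1, 10.8 and 11.0, A34 9.53, 10.3 and 11.4, A41 11.7, 10.6 and 10.9, A80 11.4, 9.94 and 9.64, and A98 10.1, 12.2 and 10.9. Ethanol libraries had 12.8, 12.7 and 13.1. All 15 rexinoid values lay below all 3 ethanol values. CCNE2 was the only gene of the 42 with that pattern, which 0.569% of all genes tested had. The means were 10.8 with a rexinoid and 12.9 with ethanol, a log2 difference of -0.23 (SE 0.07, interval -0.39 to -0.08, limma adjusted p = 0.26). By compound the difference was -0.17 for bexarotene, and -0.29 (A34), -0.20 (A41), -0.30 (A80) and -0.21 (A98) for the coded ones.

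ORC1, the largest subunit of the origin recognition complex, was at 14.0, 14.6 and 14.0 with bexarotene, 12.9, 12.3 and 15.7 with A34, 14.3, 14.0 and 13.5 with A41, 12.8, 13.3 and 15.8 with A80, and 14.1, 14.5 and 12.8 with A98, against 15.7, 15.5 and 16.5 with ethanol. The third libraries of A34 and A80 reach into the ethanol range. The log2 difference of the mean of the 5 was -0.18 (SE 0.07, interval -0.34 to -0.03, limma adjusted p = 0.39). PRIM1, the catalytic subunit of primase, overlapped ethanol in every group but A41. It was at 24.7, 24.8 and 24.6 with A41, below the 28.6, 25.5 and 27.5 of ethanol. Its means ran from 24.3 to 26.9 scaled TPM in the rexinoid groups and were 27.2 with ethanol. The log2 difference of the mean of the 5 was -0.12 (interval -0.28 to 0.04, limma adjusted p = 0.61).

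**Figure D4:**
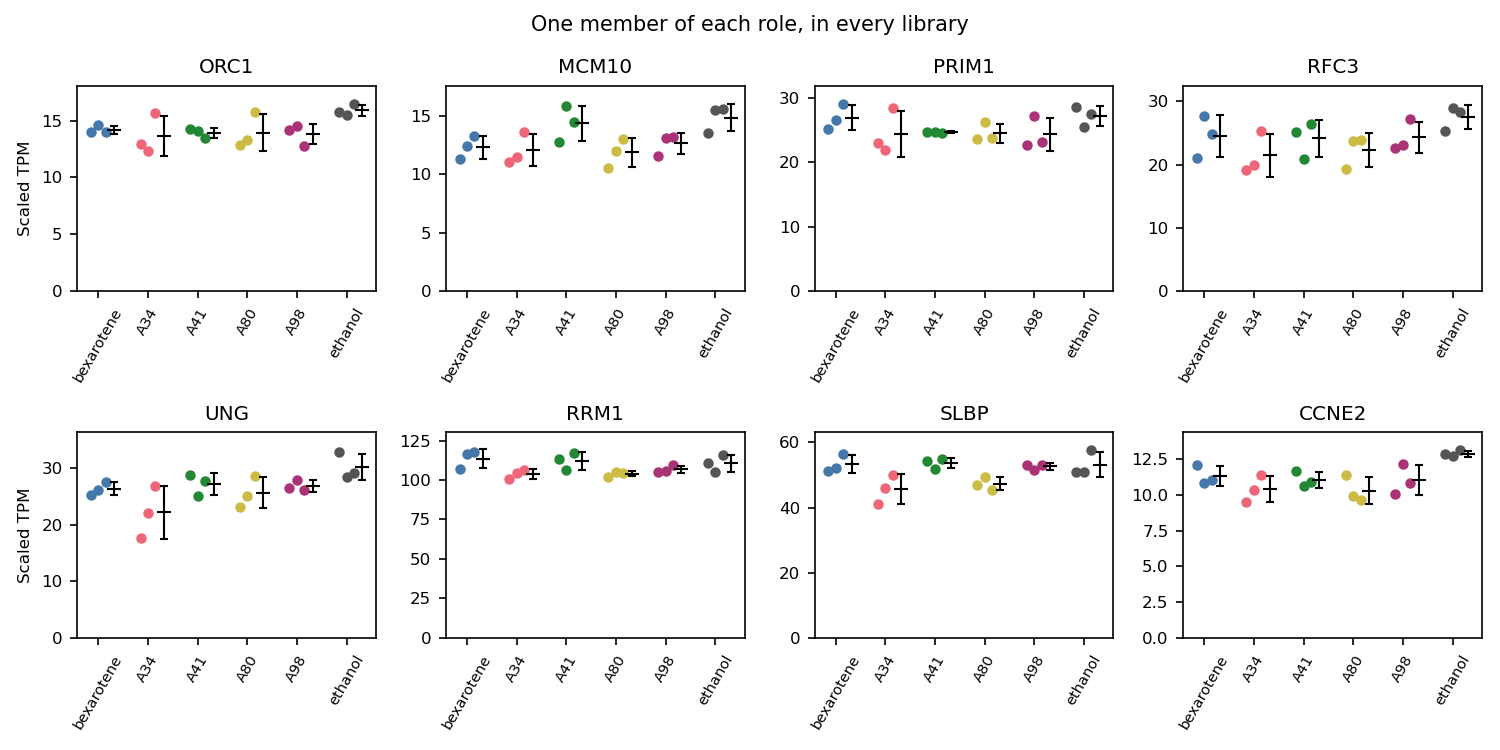
Scaled TPM of 1 gene from each of the 8 roles in every library (points), with the mean and SD of each group (bar and whiskers, n = 3), on axes that start at 0. CCNE2 is lower in all 15 rexinoid libraries than in ethanol, and UNG is lowest with A34. RRM1 overlaps ethanol in every rexinoid group, and PRIM1 in every one but A41.

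In the mean of the 5 rexinoids, widely used markers of S phase lay close to ethanol. PCNA was at 89.6, 97.3 and 101 with bexarotene, 84.8, 91.7 and 108 with A34, 94.8, 99.0 and 108 with A41, 77.0, 95 and 93.1 with A80, and 88.0, 88.9 and 99.8 with A98, against 96.3, 96.4 and 89.8 with ethanol. Every group overlapped ethanol, and the log2 difference of the mean of the 5 was -0.00 (interval -0.16 to 0.16). MCM2, one of the 6 helicase subunits, averaged 54.0 with a rexinoid and 53.4 with ethanol (log2 difference 0.01, interval -0.17 to 0.18). By group, MCM2 ran from 49.4 with A34 (log2 difference -0.12) to 60.7 with A41 (0.18), and every group overlapped ethanol. RRM2 averaged 219 with a rexinoid and 215 with ethanol (0.02, interval -0.08 to 0.13), and RRM1 108 and 111 (-0.04, interval -0.13 to 0.06). Only with A41 did RRM2 lie apart from ethanol, at 251.2, 221.2 and 222.0 against 212.1, 220.9 and 211.7. That log2 difference was 0.10 (interval -0.03 to 0.24).

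E2F1 ran from 35.1 to 50.6 scaled TPM over the rexinoid libraries and from 42 to 44.6 over ethanol. Its log2 difference was -0.04 for the mean of the 5 (interval -0.20 to 0.12, limma adjusted p = 0.90). CDT1, whose protein is destroyed once S phase begins, averaged 23.8 with A34, 28.9 with A41 and 23.7 with A80, against 27.4 with ethanol, and ranged from 18.3 in A80 replicate 1 to 31.5 in A41 replicate 2. The interval of the mean of the 5 was -0.29 to 0.12. CCNE1, the other cyclin E gene, spread most within ethanol itself, where it had 14.1, 7.41 and 10.6.

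The rexinoids were given at the same dose and time, so they can be set side by side. The F test for any difference among the 5 called 0 of the 42 genes (12 of all genes, 0.0657%), and 4 had an unadjusted p under 0.05, against 6.32% of all genes. The 4 were UHRF1 (limma adjusted p = 0.65), SLBP (0.66), GINS2 (0.71) and CDC6 (0.75). Of the 10 pairs, A34 against A41 held the most genes at an unadjusted p under 0.05: 13 of 42, all lower with A34, against 7.88% of all genes. After adjustment it was 0, against 0.0712%. Every A34 library lay below every A41 library for 11 of the 42, against 5.3% of all genes, and 41 of 42 had the lower mean with A34.

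UHRF1 led that pair with 50.2, 58.2 and 57.5 scaled TPM with A34 and 66.6, 72.7 and 69.8 with A41. The groups lay apart, with a log2 difference of -0.33 (SE 0.08, interval -0.51 to -0.16, limma adjusted p = 0.27). GINS2, a subunit of the active helicase, had 11.6, 12.2 and 12.5 with A34 and 13.6, 17.2 and 15.5 with A41, a log2 difference of -0.32 (SE 0.09, interval -0.52 to -0.12, adjusted p = 0.38). SLBP differed by -0.23 (interval -0.39 to -0.08, adjusted p = 0.43) and MCM2 by -0.29 (interval -0.52 to -0.07, adjusted p = 0.52). The 13 genes became 4 without A34 replicate 1 and 6 without either A41 replicate 2 or A41 replicate 3.

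For A41 against A80, 9 of the 42 genes had an unadjusted p under 0.05, all higher with A41, against 7.95% of all genes, and 0 after adjustment, against 0.126%. CDC45, the third part of the active helicase, averaged 35.1 with A41 and 28.1 with A80 (log2 difference 0.33, SE 0.12, interval 0.08 to 0.58, limma adjusted p = 0.48). CLSPN averaged 21.5 and 16.0 (0.41, interval 0.07 to 0.75, adjusted p = 0.54). POLE2 had the widest interval, 0.01 to 0.85, so these libraries allow a difference of up to 0.85. The 9 became 0 without A80 replicate 1, 3 without A41 replicate 2 and 2 without A41 replicate 3.

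In the other pairs few genes reached an unadjusted p under 0.05 and none passed adjustment. A34 against bexarotene had 4 (5.2% of all genes, 0% after adjustment), A41 against bexarotene 1 (6.23%, 0.115%), A80 against bexarotene 3 (6.06%, 0%) and A98 against bexarotene 1 (6.86%, 0.00547%). A34 against A80 had 1 (3.55%, 0%), A34 against A98 4 (4.51%, 0.00547%), A41 against A98 2 (7.15%, 0.131%) and A80 against A98 0 (4.04%, 0.00547%). CLSPN had the lowest log2 difference against bexarotene with both A34 (-0.35) and A80 (-0.40), CDC6 with A98 (-0.27). Without A34 replicate 3 these counts were 6 against bexarotene, 3 against A80 and 6 against A98 for A34, and without A34 replicate 1 they were 0, 1 and 1. Without A80 replicate 1, A34 against A80 had 3 and A80 against bexarotene 0, while the last had 5 without A80 replicate 3. Without A41 replicate 1, A41 against bexarotene had 9 and A41 against A98 7. Without bexarotene replicate 2 or replicate 3, A34 against bexarotene had 1. In these 8 pairs the intervals of 38 to 41 of the 42 genes lay within 0.5 either way. UHRF1, GINS2, GINS3, CDC6, CDC45, CLSPN, POLE2, ORC6 and CCNE1 were singled out after their values were seen.

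The lowest values sat in a pair of libraries. A34 replicate 1 held the lowest value of 20 of the 42 genes and A80 replicate 1 of 11, together 31 of 42. Their medians over the 42 genes lay 0.27 and 0.20 below the ethanol mean on the log2 scale (-0.27 and -0.20), while the other libraries of A34 had -0.11 and -0.03 and those of A80 -0.12 and 0.02. A41 replicate 2, the library with 56.1% ribosomal RNA, held the highest value of 18 genes, with a median of 0.10. No share over all genes is given for these counts of lowest and highest values, so they are not shown to be particular to S phase genes.

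Other values moved with these libraries. A34 replicate 1 and A80 replicate 1 had the least aligned sequence, 1.40 and 1.31 gigabases, and the highest medians of 17 hypoxia and glycolysis genes, 1.30 and 1.25 above the ethanol mean on the log2 scale, against -0.14 to 0.71 in the other 16 libraries. Of those 17 genes, 16 had an unadjusted p under 0.05 with A34, against 10.7% of all genes, and 16 with A80, against 9.41%, all higher. After adjustment it was 0, against 0.0821% and 0.0438% of all genes. The list was chosen with earlier results of these data known, so these counts are not an independent test. What part depth or these genes have in the lower S phase values was not tested. Without A34 replicate 1, the median of the 42 genes with A34 was -0.09 and 4 of 42 had an unadjusted p under 0.05. Without A34 replicate 3 it was -0.18, with 13. Without A80 replicate 1, the median with A80 was -0.03, with 2, and without A80 replicate 3 it was -0.16, with 14. With A41 the median was 0.02, with 0 genes, without A41 replicate 2, and 0.08, with 10, without A41 replicate 1. The share of all genes at that p is not given for these fits, so these counts cannot be set against it.

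**Figure D5:**
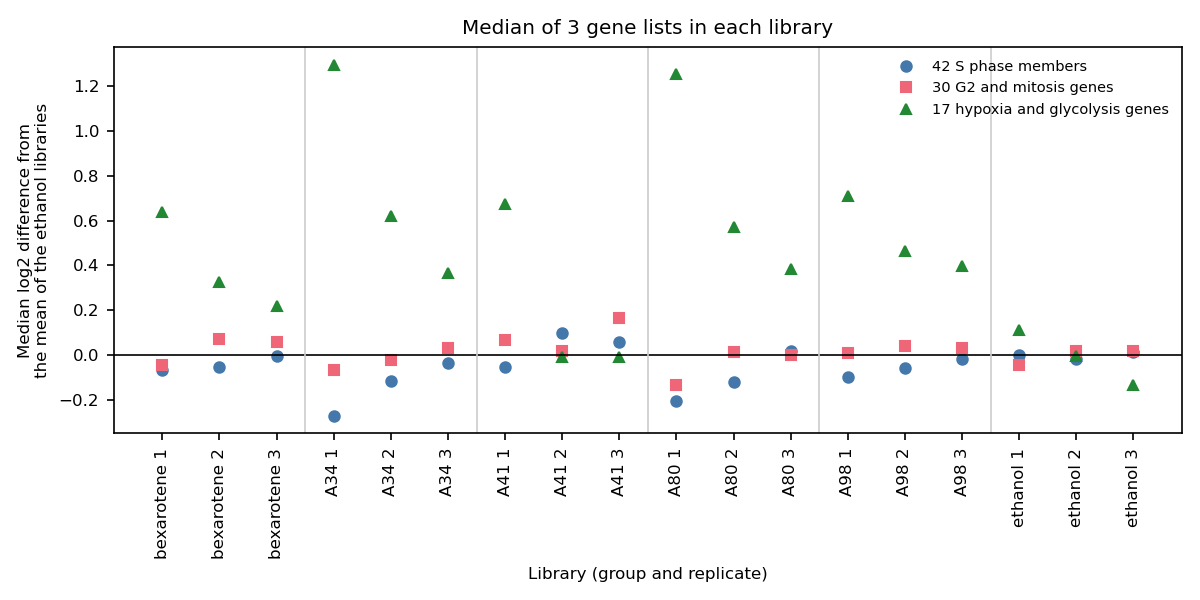
Median log2 difference from the ethanol mean of the 42 S phase genes, 30 G2 and mitosis genes and 17 hypoxia and glycolysis genes in each library. The S phase medians are lowest (-0.27 and -0.20) in A34 replicate 1 and A80 replicate 1, where the hypoxia medians are highest (1.30 and 1.25).

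The libraries that share a replicate number in their titles were compared as well. An F test for that number called 0 of the 42 genes, against 1.01% of all genes, and 13 had an unadjusted p under 0.05, against 11.6% of all genes. The smallest adjusted p was 0.12, for CLSPN. Libraries numbered 3 had the higher fitted level than those numbered 1 for 40 of the 42 genes, with a median log2 difference of 0.12, against 0.004 over all genes tested. The median of the 42 genes was higher in the library numbered 3 than in the one numbered 1 in all 6 groups, and the hypoxia median was highest in the library numbered 1 in all 6. What the numbers stand for is not given in the labels, and their part in the differences between compounds was not tested by this F test. Without A34 replicate 1 the 13 became 5, and without A80 replicate 1 they became 4.

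Related gene groups were compared by counts. Of 55 further replication genes, such as the RPA, ORC and DNA polymerase subunits outside the 42, 0 passed adjustment in any rexinoid against ethanol, and their median log2 difference was -0.11 with A34, -0.09 with A80 and -0.01 with A41. At an unadjusted p under 0.05, 12 of the 55 were lower and 1 higher with A34, and 7 were lower and 3 higher with A80. With A41, 3 lay on each side. The shares of all genes at that p, in either direction, were 10.7% with A34, 9.41% with A80 and 10.4% with A41. Of 30 G2 and mitosis genes 0 passed adjustment, with medians of -0.04, -0.06 and 0.09 for A34, A80 and A41. At an unadjusted p under 0.05, 4 of the 30 were higher with A41, and 1 was lower with A34 and 1 with A80, against the same shares of all genes. Of these genes, MKI67, a nuclear protein of cycling cells, averaged 66.9 with A80 and 82.7 with ethanol (log2 difference -0.30, SE 0.09, limma adjusted p = 0.36), TOP2A, which untangles DNA before division, 102 and 109, and CCNB1, the mitotic cyclin B1, 133 and 137.

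A list of 17 genes of the entry into S phase held cyclin D and CDK inhibitor genes. It also held CDK4, CDK6, RB1, RBL1, RBL2, E2F4, E2F5 and MYC. Of the 17, 13 were tested and 0 passed adjustment. At an unadjusted p under 0.05, 4 were lower with A34 and 2 with A41, against 10.7% and 10.4% of all genes. CCND1, cyclin D1, averaged 289 with a rexinoid and 324 with ethanol (log2 difference -0.17, SE 0.08, limma adjusted p = 0.46). CDKN1A, the CDK inhibitor p21, averaged 83.1 with A41 and 97.2 with ethanol (-0.22, SE 0.07, adjusted p = 0.23), and 90.1 with A34 (-0.11, adjusted p = 0.62).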

How the data were processed

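Total RNA was depleted of ribosomal RNA and sequenced as paired reads, per the labels' protocols. STAR, StringTie and MultiQC were used with GRCh38, per the submitters' processing notes; their versions, and whether counting used strand, are not stated in the sources used here. The authors deposited 1 table of gene TPM, FPKM and coverage per library, per the file headers. FPKM, deposited beside TPM, was used only with coverage, the deposited signal per base, to find depth as their commonest ratio in a library (1.31 to 3.89 gigabases); depth limits low genes most. These tables hold no counts, so no count model was run. TPM was divided by median-of-ratios factors (0.417 to 1.20, from 16349 genes). The 18269 genes that reached 1 TPM in 3 or more of 18 libraries were fitted as log2(scaled TPM + 1), pseudocount 1, with limma 3.58.1 in R 4.3.3: 6 groups in 1 model, 12 residual degrees of freedom, trended moderation, two-sided, Benjamini-Hochberg adjustment over all genes, threshold 0.05. This scale understates changes of low genes. Separate cultures are not stated for the libraries of a group, so each p-value reflects spread between libraries that may be technical. The fit was tested on simulated data.

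The members and comparison lists were chosen with earlier results of these data known. Values for each library were planned for the gene of smallest p in each of 8 roles (in the mean of the 5 rexinoids against ethanol). They were also planned for MCM2, PCNA, RRM2, CCNE2, E2F1 and CDT1, and for any called gene. For some of these genes, groups are given only as means or ranges or are left out of the text. Alternatives covered scaling, pseudocount, filter, weights, moderation, a replicate block and left-out libraries. Promoters are RefSeq's, GRCh38.p14.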

Additional observations from a re-analysis of the deposited data

How the results depend on the processing

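Each of the 18 counts of S phase genes called was 0, and stayed 0 in all but 4 of 374 alternatives. Array weights called 1 gene in A80 against ethanol (CCNE2, log2 -0.34, adjusted p = 0.033), 1 in the mean of the 5 rexinoids against ethanol (CCNE2, -0.25, adjusted p = 0.038) and 1 in A41 against A80 (smallest adjusted p = 0.037). Coverage in place of TPM, chosen after seeing the data, called 1 gene by replicate number (adjusted p = 0.024). The cause was not tested. Leaving out any 1 library gave 0 to 0 genes called in every comparison; genes at an unadjusted p under 0.05 ran up to 10 with A41 against ethanol and 9 with A41 against bexarotene, both without A41 replicate 1, against 3 and 1. Of 1638 alternatives for log2 differences of named genes against ethanol, 1636 kept the side of the threshold and 2 were the CCNE2 calls above. The count of reversals was 0. It left out any result at an unadjusted p of 0.05 or more whose alternative was not called, whatever its sign. Adjusted p of CCNE2 in the mean of the 5 ran from 0.038 to 1.00 over its alternatives.

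TPM as deposited, with no scaling, moved the median of all genes by -0.27 with A41 to 0.15 with A98. Relative to that shift the median of the S phase genes with A41 was -0.02, against 0.05 under TMM, so its sign depends on scaling; with A34 it was -0.13, and with A80 -0.09. Without A34 replicate 1 and A80 replicate 1, left out after seeing the data, the median for the mean of the 5 was -0.04. With a replicate block from the titles 0 S phase genes were called in every comparison, and likewise with numbers from the table names, while calls among all genes with A34 went to 166 and 57 from 15. The titles do not say what a number marks, and the correlation of deviations of same-numbered libraries lay between -0.36 and 0.31 over 45 pairs, over 0.1 in 11, so the numbers were not taken to pair libraries; as a hint from the data, 10 of 18 libraries lay closest to their own number. Depth limits POLE2, E2F2 and other low genes most.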

Other observations

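Within a library, genes share a commonest ratio of coverage to FPKM, at which 17.4% to 20.7% of genes with an FPKM over 1 lie. Among the 42 genes the ratio was lowest for GINS3, at 3.46% of the library's commonest ratio (median over the 18 libraries), and for POLA1, at 6.97%, with LIG1 next at 31.0% and RRM2 at 33.6%. It was 100.0% for E2F1. These genes were chosen after their values were seen.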
